A study of Rattus norvegicus with 16 samples.

Results

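The genes described here encode ribosome biogenesis factors, the nucleolar proteins that make and process ribosomal RNA (rRNA) together with subunits and cofactors of RNA polymerase I. They were taken by name from a list of 56 symbols, of which 53 were among the 17055 gene symbols counted in rat liver. Tsr1, Rrp12 and Rrp1b were not among the symbols. Of the 53, 51 passed the filter on low counts in every comparison. The other 2 were Nhp2, with 0 counts in all 16 libraries (a count of 0 allows up to 3 counts in a library), and Heatr1, with 7 counts in all and at most 4 in any library. Whether these low values reflect the tissue or the way reads were assigned to these symbols was not tested.

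Liver RNA came from male Sprague-Dawley rats aged 10 weeks, and 4 libraries were made for each of 4 groups, with the tissue of 3 rats pooled in every library. Isoflurane sepsis (libraries 1 to 4) and Propofol sepsis (libraries 9 to 12) followed cecal ligation and puncture (CLP). In CLP the cecum is tied and pierced so that gut contents leak into the abdomen. Isoflurane control (libraries 5 to 8) and Propofol control (libraries 13 to 16) had the abdomen opened and closed and the cecum handled without ligation or puncture. All rats, controls included, were ventilated with oxygen under anesthesia for 8 h after the celiotomy. Isoflurane rats were induced and kept on this volatile anesthetic, whereas propofol rats were induced with ketamine-xylazine and then kept on intravenous propofol. The anesthetic also coincides with the run named with the libraries, whose kind the sample titles do not give. The effects of anesthetic, induction drug and run therefore cannot be told apart in any comparison between anesthetics.

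Between 14199422 and 49937173 reads per library fell on genes, with library 8 the deepest. Levels are given as CPM, counts scaled to a common library size, after trimmed mean (TMM) scaling. The SD given for a group is taken over its 4 pools and does not measure the spread between individual rats. A member was called when its adjusted p was below 0.05 in edgeR's quasi-likelihood test, with the adjustment over all genes tested. In whole liver, fewer cells of a type and less RNA per cell cannot be told apart.

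A ribosome begins in the nucleolus, where RNA polymerase I transcribes a long precursor rRNA. Small nucleolar ribonucleoproteins (snoRNPs) guide the methylation and pseudouridylation of this precursor, and large assemblies of processing factors, helicases and GTPases cut and fold it into the small and the large subunit. In liver this work is known to follow growth, feeding and stress, since hepatocytes secrete most plasma proteins and need many ribosomes to do so. The transcription factor Myc is known to raise many of these genes together, through E boxes with the letters CACGTG near their starts.

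Promoters were read from RefSeq windows of the GRCr8 assembly that run from 250 bases before to 50 bases after each start, and 49 of the 53 members had one. CACGTG, which reads the same on both strands, was present in 15 of the 49 windows (30.6%). It was present in 9.44% of the 7958 windows of genes in the fit of all 16 libraries, and in 7.08% of all 27457 genes with a window. CCGGAA or its reverse complement TTCCGG, the core of sites for ETS family factors, was present in 26 member windows (53.1%) and in 28% of the windows of tested genes. GGGCGG or CCGCCC, the core of the GC box, was present in 33 (67.3%) and in 62.8%, respectively. These are letter matches that may overlap each other, and none is shown here to be a bound site. The 160 bases before the start are printed for 3 members that hold CACGTG there and whose values are described below, with CACGTG in capitals.
Utp20: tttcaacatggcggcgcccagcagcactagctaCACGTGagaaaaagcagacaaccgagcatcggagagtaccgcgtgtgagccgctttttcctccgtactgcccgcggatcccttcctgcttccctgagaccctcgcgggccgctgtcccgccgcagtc
Mybbp1a: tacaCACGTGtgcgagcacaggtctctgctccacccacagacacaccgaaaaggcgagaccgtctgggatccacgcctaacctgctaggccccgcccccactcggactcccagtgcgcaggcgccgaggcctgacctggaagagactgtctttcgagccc
Pes1: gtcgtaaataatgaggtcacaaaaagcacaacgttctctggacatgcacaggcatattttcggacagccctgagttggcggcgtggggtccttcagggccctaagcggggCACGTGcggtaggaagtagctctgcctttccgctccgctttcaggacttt
The Utp20 stretch is at chr7:25102850-25103009 on the minus strand. The Mybbp1a stretch is at chr10:57555298-57555457 and the Pes1 stretch at chr14:83074186-83074345, both on the plus strand. CACGTG began 127 bases before the start of Utp20, 156 bases before that of Mybbp1a and 50 bases before that of Pes1. Mybbp1a had a further match across its start.

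Before any test, the members were followed as 1 average per library, the mean over the 51 tested members of the log2 level relative to the 16-library mean. Isoflurane control libraries 5 to 8 were at -0.253, -0.217, -0.25 and -0.253, a mean of -0.243 with an SD of 0.017. Isoflurane sepsis libraries 1 to 4 were at -0.061, 0.075, -0.235 and -0.196 (mean -0.104, SD 0.141). Libraries 1, 2 and 4 lay above every Isoflurane control library, library 4 by a small margin, and library 3 lay within the control range. Propofol control libraries 13 to 16 were at 0.211, 0.176, 0.353 and 0.063 (mean 0.201, SD 0.12), and Propofol sepsis libraries 9 to 12 at 0.125, -0.026, 0.262 and 0.226 (mean 0.147, SD 0.129). The propofol groups overlapped each other, and every Propofol control library was above every Isoflurane control library. Among the 51 members, the lowest of the 4 group means was that of Isoflurane control for 39. The highest was that of Propofol control for 33 and of Propofol sepsis for 15. How often this holds over all genes is not given here, so whether these counts are many cannot be said.

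**Figure D1:**
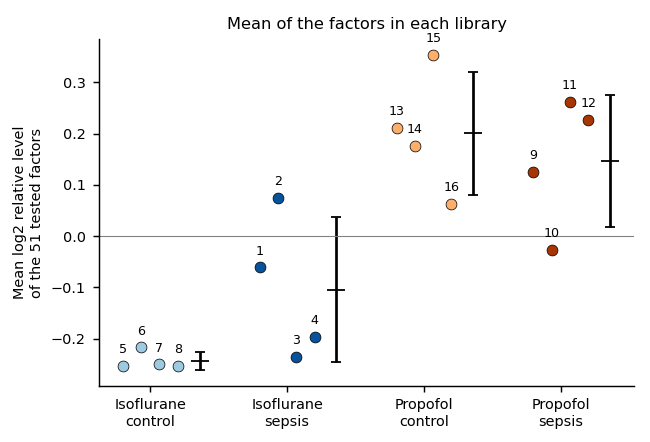
Mean log2 relative level of the 51 tested ribosome biogenesis factors in each library (vertical axis, log2 scale), by group, with library numbers beside the points and the group mean ± SD as bars. The 4 Isoflurane control libraries sit between -0.253 and -0.217, and the 4 Propofol control libraries between 0.063 and 0.353.

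**Figure D2:**
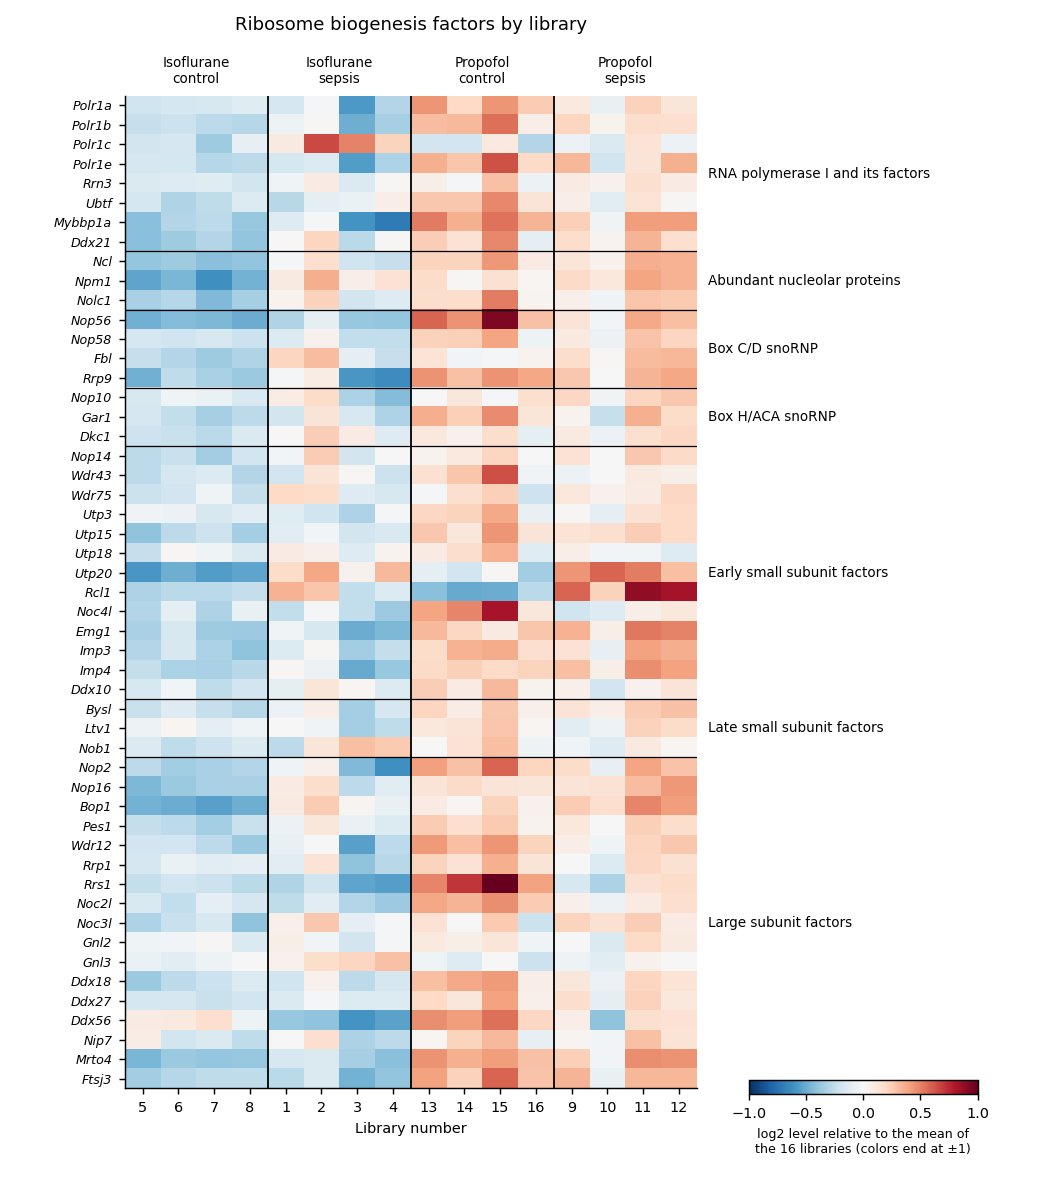
Level of each tested member (rows, by role) in each of the 16 libraries (columns, by group) as log2 relative to the member's own mean over the 16 libraries, with colors ending at ±1. Isoflurane control columns are below the mean for most rows, and Rcl1 and Utp20 are above their means in all 4 Propofol sepsis columns.

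The first question was how the members changed with sepsis under isoflurane, in the 8 libraries of the isoflurane groups. With sepsis, 15 of 51 members rose (29.4%) and 1 fell (1.96%). Over all 10361 genes tested, 25.7% were called higher and 24.4% lower. The share of members that rose was near that of all genes, and the share that fell was below it. Of the rest, 35 did not pass the test. The median log2 fold change of the members was 0.12, against 0.00609 over all genes, and 41 of 51 lay above 0. Sepsis and control libraries did not overlap for 17 members, 16 of them higher with sepsis. No such count over all genes is given here, so whether 17 is many cannot be said. Without 1 library in turn, 9 of the 16 calls held throughout. The number higher was 9 without library 2, 6, 7 or 8, 8 without library 5, and 7 with library totals as the only scaling.

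Utp20, a large protein of the small subunit precursor, had the largest rise under isoflurane. Its level was 47.8, 51, 48.6 and 49.7 CPM in Isoflurane control libraries 5 to 8 and 81.3, 93.5, 73.9 and 89.4 CPM in Isoflurane sepsis libraries 1 to 4. The groups did not overlap, and the log2 fold change was 0.78 (SE 0.0797, adjusted p = 0.000164). Npm1 encodes nucleophosmin, an abundant nucleolar chaperone of histones and preribosomes. It rose from 182, 191, 171 and 189 CPM to 279, 338, 274 and 290 CPM, a log2 fold change of 0.69 (SE 0.0844, adjusted p = 0.000347). Every Isoflurane sepsis library was well above every control library for Npm1. Npm1 has processed copies elsewhere in the genome, so how its reads were shared among copies is uncertain.

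Polr1c, a subunit that RNA polymerases I and III share, was at 28, 28.3, 24.8 and 29.9 CPM in control and at 33.7, 50.2, 44.8 and 37 CPM in sepsis libraries (log2 fold change 0.58, SE 0.132, adjusted p = 0.00648). Ddx21, a helicase that couples polymerase I transcription to rRNA processing, went from 56.9, 59.4, 62.2 and 57.7 CPM to 75.9, 88.1, 63.1 and 76.6 CPM. Its log2 fold change was 0.36 (SE 0.0945, adjusted p = 0.0117), and library 3 lay only just above the highest control library. The other 6 members of the polymerase I group did not pass the test. They include the catalytic subunits Polr1a (log2 fold change -0.08) and Polr1b (0.05), the initiation factor Rrn3 (0.13) and the rDNA-binding factor Ubtf (0.13).

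All 3 abundant nucleolar proteins rose under isoflurane. Besides Npm1 these were nucleolin, Ncl, with a log2 fold change of 0.33 (SE 0.0926, adjusted p = 0.0162), and the snoRNP chaperone Nolc1, with 0.34 (SE 0.0934, adjusted p = 0.0141). Ncl lost its call when libraries were scaled by their totals. Among box C/D snoRNP proteins, which carry out rRNA methylation, the methyltransferase fibrillarin, Fbl, rose and the other 3 did not pass the test. Fbl was at 38.6, 36.9, 35.3 and 36.7 CPM in control and at 52.3, 55.9, 42.4 and 38.5 CPM in sepsis libraries. Library 4 lay within the control range, and the log2 fold change was 0.36 (SE 0.114, adjusted p = 0.0267, between 0.00441 and 0.0729 over 16 alternatives). Fbl lost its call without library 1, 2, 5, 6, 7 or 8. Of the box H/ACA proteins, which carry out pseudouridylation, dyskerin, Dkc1, rose by 0.27 on the log2 scale (SE 0.0868, adjusted p = 0.0285). It lost its call without any 1 of libraries 2, 3 and 5 to 8.

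Early small subunit factors had 3 of 13 higher and none lower, that is Utp20, Rcl1 and Nop14 (log2 fold change 0.28, adjusted p = 0.0349). The share higher was near the 25.7% of all genes. Rcl1, a protein of the small subunit precursor that resembles RNA cyclases, was at 187, 192, 193 and 197 CPM in control and at 296, 281, 195 and 210 CPM in sepsis libraries. Libraries 1 and 2 were far above the controls, and library 3 lay within their range. The log2 fold change was 0.36 (SE 0.128, adjusted p = 0.0441, between 0.0137 and 0.122 over 16 alternatives), and the call was lost without library 1, 2, 5, 6, 7 or 8. None of the 3 late small subunit factors tested was called: Bysl had a log2 fold change of 0.10, the export factor Ltv1 -0.11 and the endonuclease Nob1 0.31 (adjusted p = 0.0625).

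Among the 17 large subunit factors tested, 5 rose and 1 fell, where 25.7% of all genes were called higher and 24.4% lower. The share that rose was near that of all genes. Bop1, which forms the PeBoW complex with Pes1 and Wdr12, went from 55.5, 54.7, 53 and 55 CPM to 82.1, 92, 78.4 and 73.2 CPM with no overlap (log2 fold change 0.58, SE 0.078, adjusted p = 0.000513). Its partner Pes1 rose by less, 0.23 on the log2 scale (adjusted p = 0.0229), and Wdr12 was at 0.05 (adjusted p = 0.737). Nop16 (0.35), Noc3l (0.33) and the GTPase Gnl3, nucleostemin (0.24), also rose. Pes1, Noc3l, Gnl3 and Nop14 each lost their call without at least 1 library. Ddx56, a helicase of the large subunit precursor, fell from 30.4, 30.6, 32.2 and 27.6 CPM to 22, 21.7, 19 and 19.8 CPM. The groups did not overlap, and the log2 fold change was -0.55 (SE 0.079, adjusted p = 0.000708).

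The same question under propofol used the 8 libraries of the propofol groups. Here 3 of 51 members rose (5.88%) and 7 fell (13.7%), where 20.4% of all 10348 genes tested were called higher and 21.7% lower. Both shares were below those of all genes, and 41 members did not pass the test. The median log2 fold change was -0.08, against -0.00161 over all genes, and 34 of 51 members lay below 0. Groups did not overlap for 6 members, 2 higher and 4 lower, again without a count over all genes to set beside it. Of the calls over all genes, 48.4% were higher with TMM scaling and 38.3% with library totals as the only scaling. Leaving out 1 library at a time kept 5 of the 10 member calls throughout. The number lower was 3 without library 15 and 4 without library 10, 13 or 14, and the number higher was 7 without library 10.

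Rcl1 and Utp20 had the largest rises. Rcl1 was at 174, 164, 165 and 192 CPM in Propofol control libraries 13 to 16 and at 347, 272, 429 and 412 CPM in Propofol sepsis libraries 9 to 12. All 4 sepsis libraries were far above the controls (log2 fold change 1.07, SE 0.133, adjusted p = 0.000283). Utp20 went from 67.2, 62.7, 72.3 and 56.1 CPM to 96.9, 107, 102 and 88 CPM, again with no overlap (log2 fold change 0.60, SE 0.0889, adjusted p = 0.000642). Bop1 was the third to rise, from 81.9, 78.3, 90.1 and 79.6 CPM to 92, 86.8, 108 and 103 CPM. Library 10 lay within the control range, and the log2 fold change was 0.24 (SE 0.0813, adjusted p = 0.0403, between 0.00965 and 0.112 over 16 alternatives). The Bop1 call was lost without library 9, 11, 12, 13, 14 or 16 and with scaling by totals.

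Rrs1, a factor for assembly of the large subunit, had the largest fall under propofol. It stood at 39.8, 46.6, 57.6 and 37.6 CPM in control and at 25.5, 22.8, 31.6 and 32.3 CPM in sepsis libraries, with no overlap (log2 fold change -0.70, SE 0.152, adjusted p = 0.00509). Noc4l, which binds Nop14 in the small subunit precursor, was at 15.4, 16.5, 20.8 and 12.7 CPM and then at 10.2, 10.7, 12.2 and 12.6 CPM. Its sepsis libraries were all below its controls, library 12 by a small margin (log2 fold change -0.52, SE 0.141, adjusted p = 0.0153). Noc2l, a large subunit factor that also binds histones, fell from 66, 63.8, 69.6 and 60 CPM to 52.2, 48.3, 53.3 and 56.7 CPM (log2 fold change -0.31, SE 0.0684, adjusted p = 0.00584).

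Ddx56 fell under propofol as well, from 39.5, 38.3, 41.9 and 33 CPM to 30, 21.7, 32 and 31.6 CPM. The groups did not overlap, library 10 was the lowest, and the log2 fold change was -0.41 (SE 0.124, adjusted p = 0.0246, lost without library 13, 14 or 15, with 0.0643 as the highest of the alternatives). Nop56, a core box C/D snoRNP protein, was at 83.6, 76.3, 107 and 68.5 CPM in control and at 61.2, 55, 72.6 and 69 CPM in sepsis libraries. These groups overlapped, and the log2 fold change was -0.38 (SE 0.136, adjusted p = 0.0444, lost without library 9, 10, 12, 13, 14 or 15, with 0.103 as the highest). Ubtf (log2 fold change -0.27, adjusted p = 0.0262) and Polr1a (-0.25, adjusted p = 0.0379) were the remaining calls, and each was lost without at least 1 library. In the polymerase I group 2 of 8 fell under propofol and none rose. Of all genes 21.7% were called lower, a share near that of the group. No abundant nucleolar protein, box H/ACA protein or late small subunit factor was called under propofol.

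**Figure D3:**
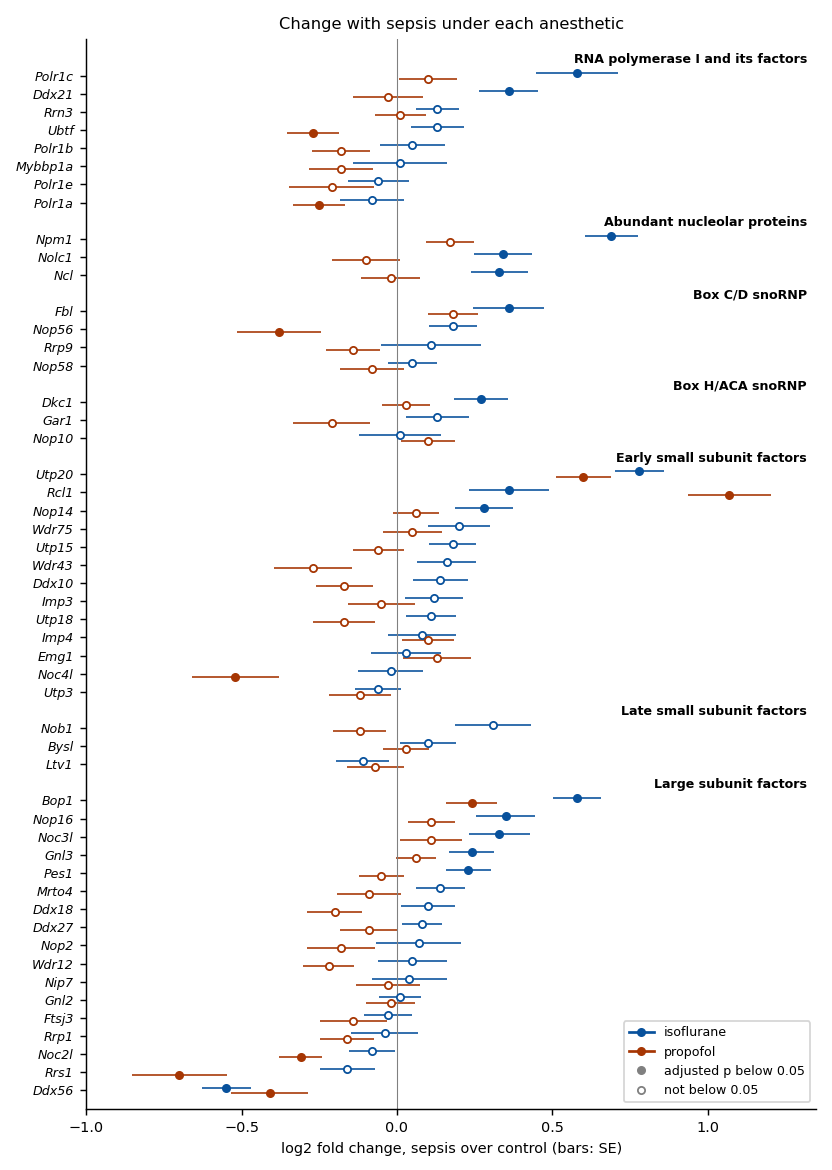
Log2 fold change of sepsis over control (horizontal axis) for each of the 51 tested members under isoflurane (blue) and propofol (brown), by role, with SE bars and filled points for an adjusted p below 0.05. Utp20, Rcl1 and Bop1 are filled to the right of 0 in both colors and Ddx56 to the left in both.

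Across both anesthetics Utp20, Rcl1 and Bop1 rose with sepsis and Ddx56 fell, none was called in opposite directions, and 29 of 51 were called in neither. The fold changes under the 2 anesthetics, which share no library, had a Pearson r of 0.628 and a Spearman rho of 0.61 across the 51 members, given as a description since the members are not independent. For 24 members the fold change was above 0 under isoflurane and below 0 under propofol. No such counts or correlation over all genes are given here, so whether these values are unusual cannot be said. Whether the changes differed was tested in a fit of all 16 libraries, as the change with sepsis under isoflurane minus that under propofol.

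In that test 1 of 51 members was called higher (1.96%) and 0 lower, against 1.66% higher and 1.06% lower among 10621 genes. The member was Npm1, with a difference of 0.52 in log2 fold change (SE 0.116, adjusted p = 0.0354, between 0.00141 and 0.0764 over 23 alternatives). Under propofol Npm1 was at 298, 264, 290 and 265 CPM in control and 299, 281, 344 and 332 CPM in sepsis libraries, with a log2 fold change of 0.17 (adjusted p = 0.113). Its call in the interaction was lost without any 1 of libraries 2, 5 to 8, 9 and 12 to 15. At an unadjusted p below 0.05 there were 17 members higher and 1 lower in edgeR. The share of all genes at that threshold is not given here, so whether 17 is many cannot be said. DESeq2 called 3 members higher and 1 lower at an adjusted p below 0.05. Over all genes DESeq2 called 506 higher and 341 lower, where edgeR called 176 and 113. The number higher was 5 without library 1 and 2 without library 16, and the number lower was 1 without library 1 or 10.

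The median difference over the members was 0.21, against -0.0162 over all genes, and 45 of 51 lay above 0. Nop56 (0.55, adjusted p = 0.0776), Rrs1 (0.53, adjusted p = 0.117) and Noc4l (0.49, adjusted p = 0.135) had differences of about the size of that of Npm1, with larger SEs (0.169, 0.19 and 0.186). Rcl1 lay on the other side, at -0.72 (SE 0.2, adjusted p = 0.064). For Utp20 the difference was 0.17 (SE 0.125, adjusted p = 0.42) and for Ddx56 it was -0.15 (SE 0.156, adjusted p = 0.571), so a difference between the anesthetics was not detected for either.

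**Figure D4:**
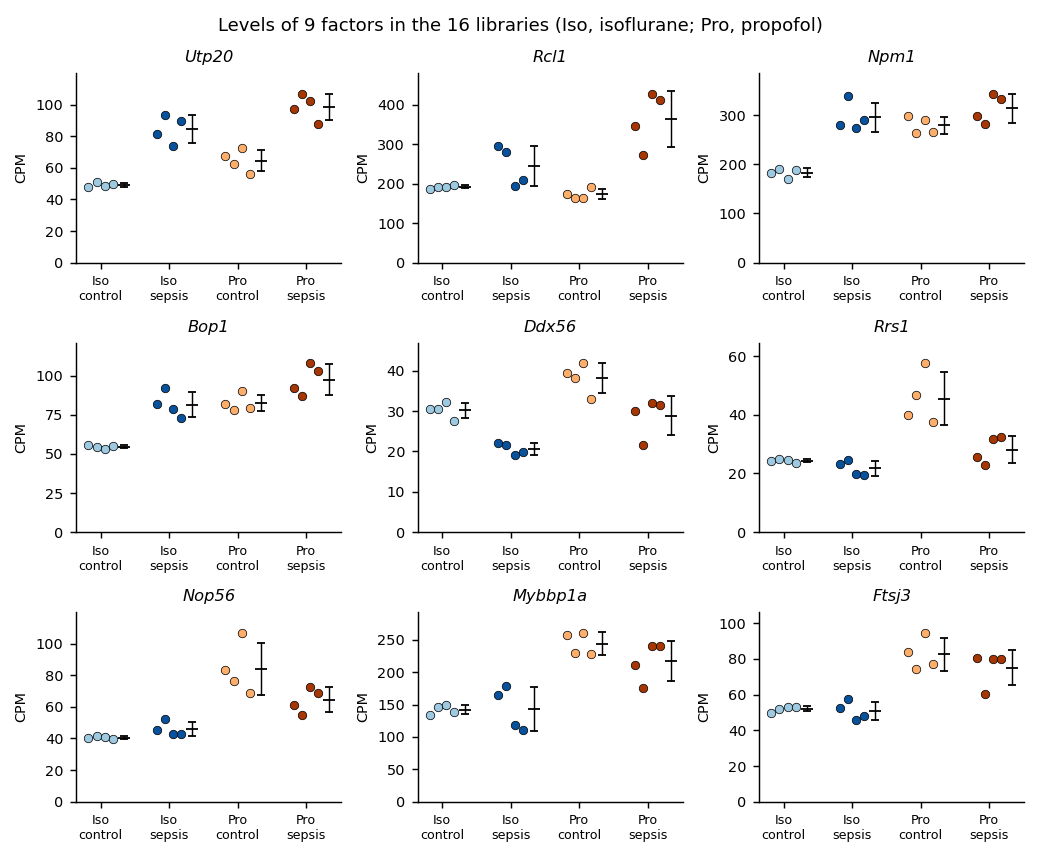
Level in CPM (vertical axis from 0, a different scale in each panel) of 9 members in the 4 libraries of each group, with mean ± SD as bars. Utp20 and Rcl1 are higher with sepsis under propofol in every library, and Nop56, Rrs1 and Mybbp1a are lower in every Isoflurane control library than in every Propofol control library.

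The control groups were compared next, to ask how the members stood under each anesthetic without CLP. This comparison shares its libraries with the sepsis comparisons above, so it is not independent of them. Of 51 members, 43 were lower in Isoflurane control than in Propofol control (84.3%) and 0 were higher, with 1 higher at an unadjusted p below 0.05 and 0 higher in DESeq2. Over all 10314 genes tested, 21.6% were called higher and 21.7% lower. The median log2 difference of the members was -0.50, against -0.000491 over all genes, and 49 of 51 lay below 0. Libraries did not overlap for 42 members, each of them lower under isoflurane. The share of all genes without overlap is not given here. Without 1 library in turn, 40 of the 43 calls held throughout, and 1 member, Rcl1, was called higher without library 16.

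Nop56 had the largest difference, 40.1, 41.5, 40.9 and 39.7 CPM in Isoflurane control libraries 5 to 8 against 83.6, 76.3, 107 and 68.5 CPM in Propofol control libraries 13 to 16. Its log2 difference was -1.05 (SE 0.113, adjusted p = 6.26e-05). Rrs1 was at 24.1, 24.8, 24.5 and 23.6 CPM against 39.8, 46.6, 57.6 and 37.6 CPM (log2 difference -0.91, SE 0.115, adjusted p = 0.00016). Mybbp1a, a nucleolar protein that associates with polymerase I and with p53, was at 134, 146, 150 and 138 CPM against 257, 230, 261 and 228 CPM. Its log2 difference was -0.78 (SE 0.063, adjusted p = 1.38e-05). In all 3 the 4 isoflurane libraries were close together and far below the propofol libraries, of which library 15 was the highest.

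By role, 7 of 8 polymerase I genes were lower in Isoflurane control, with Polr1c the exception (log2 difference -0.05, adjusted p = 0.647). All 3 abundant nucleolar proteins were lower (Ncl -0.63, Npm1 -0.61, Nolc1 -0.58), as were all 4 box C/D proteins, 2 of 3 box H/ACA proteins and all 3 late small subunit factors. Among early small subunit factors 10 of 13 were lower and among large subunit factors 14 of 17. The 8 members that were not called were Polr1c, Nop10, Wdr75, Utp18, Rcl1, Nip7, Gnl2 and Gnl3. Their log2 differences ran from -0.26 for Nip7 to 0.15 for Rcl1.

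Scaling matters most for comparisons between anesthetics. With library totals alone in place of TMM, the median of all genes moved by -0.145 between the controls and by -0.146 between the septic groups. The share of calls that were higher went from 49.8% to 22.9% between the controls and from 55.1% to 21.4% between the septic groups. The members' median between controls was then -0.64, which differs from the -0.50 under TMM by about that shift.

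The septic groups were then compared between anesthetics. Whether this difference departs from that between the controls is what the interaction above tests, where 1 member was called. In Isoflurane sepsis against Propofol sepsis, 9 of 51 members were lower (17.6%) and 0 higher, with 2 higher at an unadjusted p below 0.05 and 2 in DESeq2. Over all 10272 genes tested, 10.6% were called higher and 8.66% lower. The median log2 difference was -0.24, against -0.0109 over all genes, and 47 of 51 members lay below 0. Groups did not overlap for 9 members, 8 of them lower, and no share over all genes is given beside this count. None of the 9 calls held without each of the 8 libraries in turn: the number lower was 0 without library 9, 11 or 12, 1 without library 3, 5 without library 4 and 15 without library 10. It was 18 in DESeq2, 25 in a fit of all 16 libraries and 30 with scaling by totals. Over all genes the number lower was 1308 in DESeq2 and 2177 with scaling by totals, against 890 in the main fit.

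Emg1, a methyltransferase of small subunit rRNA, was at 15.1, 13.8, 10.9 and 11.3 CPM in Isoflurane sepsis libraries 1 to 4 and at 19.7, 16, 22.2 and 21.7 CPM in Propofol sepsis libraries 9 to 12 (log2 difference -0.64, SE 0.142, adjusted p = 0.0217, at most 0.0759 over 16 alternatives). Mybbp1a was at 165, 178, 118 and 110 CPM against 211, 175, 240 and 240 CPM, and libraries 2 and 10 overlapped (log2 difference -0.61, SE 0.175, adjusted p = 0.0424, at most 0.116). Ftsj3, an rRNA methyltransferase of the large subunit pathway, was at 52.6, 57.4, 45.7 and 48.2 CPM against 80.3, 60.2, 79.8 and 79.8 CPM (log2 difference -0.56, SE 0.116, adjusted p = 0.0179, at most 0.0675). The groups did not overlap for Emg1 and Ftsj3. Libraries 3 and 4 were lower than 1 and 2 for all 3 genes, and library 10 was the lowest of the propofol libraries. Nop56, Mrto4, Imp4, Ddx56, Noc2l and Utp15 were the other calls, with log2 differences from -0.56 for Mrto4 to -0.31 for Utp15.

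**Figure D5:**
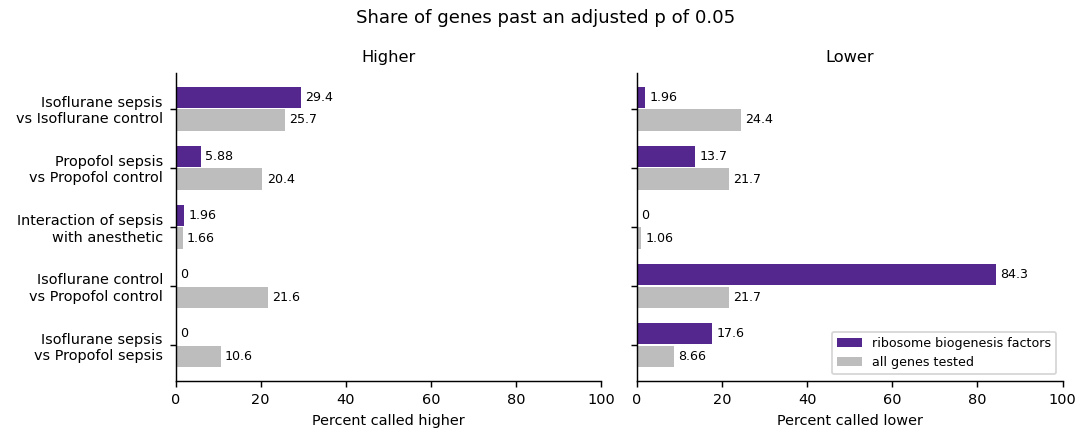
Percent of the 51 tested members (purple) and of all genes tested (gray) called higher (left) and lower (right) at an adjusted p below 0.05 in each comparison (horizontal axes from 0 to 100%). Members called lower in Isoflurane control than in Propofol control reach 84.3%, against 21.7% of all genes.

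The members with and without CACGTG in their window were set side by side, as a description with no test. Calls in either direction were counted. Of the 15 with the motif, 7 were called with sepsis under isoflurane and 11 between the controls. The median log2 values were 0.20 and -0.32. Of the 32 tested members whose window lacks it, 8 and 29 were called, with medians of 0.12 and -0.53. Under propofol 2 with the motif and 6 without it were called, with medians of 0.03 and -0.10. Of all genes, 25.7% were called higher and 24.4% lower with sepsis under isoflurane, and 20.4% and 21.7% under propofol. Between the controls 21.6% were higher and 21.7% lower under isoflurane. Each count is to be read beside the sum of its higher and lower shares. Under isoflurane 7 of 15 lies near that sum and 8 of 32 below it. Utp20 holds the motif and rose with sepsis under both anesthetics, whereas Mybbp1a, with its 2 matches, did not pass the test under either (log2 fold change 0.01 and -0.18).

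Other genes of the pathway were counted from lists that hold no member. Counts here and in the lists below are to be read beside the shares of all genes tested. With sepsis, 25.7% of all genes were called higher and 24.4% lower under isoflurane, and 20.4% and 21.7% under propofol. Between the controls 21.6% were higher and 21.7% lower under isoflurane. Several of the counts lie near these shares. Of 28 other small subunit factors, 6 were higher and 2 lower with sepsis under isoflurane, 2 higher and 6 lower under propofol, and 22 lower between the controls. The acetyltransferase Nat10 fell under isoflurane (log2 fold change -0.57, adjusted p = 0.0101) and under propofol (-0.49, adjusted p = 0.00533). The kinase Riok2, which acts late in small subunit maturation, also fell under isoflurane (-0.47, adjusted p = 0.00264) and under propofol (-0.60, adjusted p = 0.00632). Utp23 rose under both (0.52, adjusted p = 0.00568, and 0.38, adjusted p = 0.0132).

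Of 36 other large subunit factors, 8 were higher and 1 lower under isoflurane, 3 higher and 6 lower under propofol, and 26 lower and 1 higher between the controls. Eif6, which keeps subunits from joining too early, rose under both anesthetics (0.40, adjusted p = 0.0019, and 0.31, adjusted p = 0.00264). The helicase Ddx51 fell under both (-0.55, adjusted p = 0.00342, and -0.44, adjusted p = 0.0032). The GTPase Gtpbp4 fell under propofol (-0.54, adjusted p = 0.003) and was at -0.01 under isoflurane (adjusted p = 0.945), and the difference between the anesthetics did not pass the test (0.52, adjusted p = 0.087). Of 10 other polymerase I genes, 5 were higher and 1 lower under isoflurane, 1 higher and 2 lower under propofol, and 5 lower between the controls. This list also takes in subunits shared with other polymerases and regulators, and its 1 gene higher under propofol was Baz2a. Taf1d, a subunit of the promoter selectivity factor of polymerase I, rose under isoflurane (0.57, adjusted p = 0.000317) and differed between the anesthetics in its response (0.75, adjusted p = 0.0111). The polymerase I subunit Cd3eap rose under isoflurane (0.53, adjusted p = 0.00547) and was at -0.02 under propofol (adjusted p = 0.904), with a difference of 0.55 that did not pass the test (adjusted p = 0.104). Taf1b fell under both (-0.62, adjusted p = 0.0206, and -0.74, adjusted p = 0.0148), and Baz2a rose under both (0.40, adjusted p = 0.00586, and 0.32, adjusted p = 0.0339).

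The RNA exosome, which trims rRNA precursors and degrades their spacers, had 4 of 10 genes lower and none higher under isoflurane, 2 lower under propofol and 6 lower between the controls. Exosc4 fell under both (log2 fold change -0.51, adjusted p = 0.00187, and -0.46, adjusted p = 0.0218), and so did Exosc8 (-0.56, adjusted p = 0.00636, and -0.73, adjusted p = 0.00309). Skiv2l2 fell under isoflurane (-0.40, adjusted p = 0.00316) and was at -0.13 under propofol (adjusted p = 0.114), and its difference did not pass the test (-0.28, adjusted p = 0.11). Of 10 RNA polymerase III subunits, 2 were lower under isoflurane, 1 higher and 2 lower under propofol, and 6 lower and 1 higher between the controls. Polr3c fell under both anesthetics (-0.60, adjusted p = 0.00158, and -0.35, adjusted p = 0.00548), Polr3gl fell under isoflurane (-0.36, adjusted p = 0.04; -0.34, adjusted p = 0.0621 under propofol) and Polr3d rose under propofol (0.28, adjusted p = 0.00472; 0.08, adjusted p = 0.45 under isoflurane).

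Cytosolic ribosomal proteins, the products that these factors assemble with rRNA, gave other counts than the members. Under isoflurane 41 of 73 were higher and none lower, with a median log2 fold change of 0.20. Under propofol 3 of 74 were higher and none lower, with a median of 0.07. Between the controls 12 of 73 were lower and 2 higher, with a median of -0.04, where the members' median was -0.50. Ribosomal protein genes have many processed copies, so reads may be shared among copies.

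Of 14 genes of the Myc network and growth regulators, 6 were higher and 1 lower under isoflurane, 4 higher and 1 lower under propofol, and 4 higher and 4 lower between the controls. Myc was at 34.8, 34, 31.4 and 32.2 CPM in Isoflurane control libraries 5 to 8 and at 64.6, 81.5, 156 and 55.9 CPM in Isoflurane sepsis libraries 1 to 4. The groups did not overlap, library 3 was the highest, and the log2 fold change was 1.45 (SE 0.3, adjusted p = 0.00411). In Propofol control libraries 13 to 16 it was at 54.6, 71.7, 123 and 26.4 CPM, a wide spread, and in Propofol sepsis libraries 9 to 12 at 44.4, 43.4, 52.3 and 45 CPM (log2 fold change -0.58, SE 0.355, adjusted p = 0.213). The difference between the anesthetics in its response was 2.01 (SE 0.506, adjusted p = 0.0473), and between the controls it was lower under isoflurane (log2 difference -1.06, SE 0.34, adjusted p = 0.027). Library 15, the highest for Myc among the Propofol controls, was also the highest of all libraries for the members' mean, and library 16, the lowest for Myc, was the lowest of its group. Library 3, the highest for Myc in Isoflurane sepsis, had the lowest members' mean of its group. These are single libraries, and whether the members follow Myc was not tested.

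Elsewhere in that list 3 named genes rose under both anesthetics. Maf1, a repressor of polymerase III, had log2 fold changes of 0.48 under isoflurane (adjusted p = 0.00444) and 0.30 under propofol (adjusted p = 0.0148). Max, the partner of Myc, was at 0.44 (adjusted p = 0.00613) and 0.43 (adjusted p = 0.00413), and the Myc antagonist Mxd1 at 0.95 (adjusted p = 0.0122) and 1.16 (adjusted p = 0.000263). Of 7 genes of nucleolar stress and p53, which respond when ribosome assembly is disturbed but also to other stresses, 6 were higher under isoflurane and 3 under propofol, with none lower. Ccng1 (1.27, adjusted p = 6.35e-05, and 0.65, adjusted p = 0.00146), Zmat3 (1.16, adjusted p = 0.000979, and 0.76, adjusted p = 0.00694) and Cdkn1a (2.19, adjusted p = 0.0018, and 1.47, adjusted p = 0.000403) each rose under isoflurane and under propofol. In the test of the difference between the anesthetics, 2 of the 7 were called higher and 0 lower, against 1.66% and 1.06% of all genes. Ccng1 was called (0.61, adjusted p = 0.0473), and Zmat3 (0.39, adjusted p = 0.385) and Cdkn1a (0.71, adjusted p = 0.345) were not. Between the controls 1 of the 7 was higher and 3 lower.

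Markers of some cell types differed between the groups, and their part in the members' results was not tested. Counts of markers called are to be read beside the shares of all genes given with the other pathway genes. All 8 hepatocyte markers were present, and their summed level was 121000 to 130000 CPM in Isoflurane control, 99600 to 113000 CPM in Isoflurane sepsis, 88900 to 99200 CPM in Propofol control and 81600 to 91100 CPM in Propofol sepsis. Between the controls 4 of the 8 were higher under isoflurane and 1 lower. With sepsis 3 were lower under each anesthetic. Neutrophil and monocyte markers, 9 of 11 tested, summed to 31.3 to 36.3 CPM in Isoflurane control, 58.2 to 156 CPM in Isoflurane sepsis, 39.6 to 52 CPM in Propofol control and 65.2 to 91.4 CPM in Propofol sepsis, with 7 higher under isoflurane and 6 under propofol.

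Kupffer cell and macrophage markers summed to 237 to 298 CPM, 258 to 353 CPM, 272 to 314 CPM and 240 to 291 CPM in the same order of groups, with 4 of 6 higher and 1 lower under isoflurane. Under propofol 1 was higher and 1 lower, and the ranges of the groups overlapped. Lymphocyte markers reached at most 6.4 CPM in any library, and 2 of 2 tested were higher under isoflurane. Endothelial markers had 4 of 6 lower under isoflurane and 2 lower and 1 higher under propofol. Stellate cell and fibroblast markers had 3 of 8 higher and 1 lower under isoflurane and 1 higher and 3 lower under propofol, and cholangiocyte markers 2 of 3 higher under isoflurane and 1 under propofol. Cell cycle genes summed to 43 to 57.5 CPM in Isoflurane control and 35.5 to 39.9 CPM in Propofol control, with 8 of 12 higher and 1 lower under isoflurane, the opposite side from the ribosome biogenesis factors. With sepsis 1 of 12 was higher under isoflurane and 6 of 11 under propofol. No marker found in the files was at 0 counts in all libraries.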

How the data were processed

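Liver RNA from pools of 3 rats was sequenced as 16 poly(A)-selected, strand-keeping libraries. For each, the authors deposited whole-number counts of reads per gene symbol, without normalization. The submitters' processing notes name STAR and the rn5 genome build. The counting program, annotation and strand setting are not given in the sources used, and overlapping and antisense genes cannot be told apart. Reads outside genes (21.61 to 25.39% of reads) and ambiguous reads (1.074 to 1.351%) were left out. Each library had between 14199422 and 49937173 reads on genes.

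Groups came from the sample titles. Each comparison was fitted with edgeR 4.0.16 in R 4.3.3, with TMM scaling, filterByExpr (minimum count 10, minimum total 15) and the quasi-likelihood F-test, in 8 libraries, or in 16 for the interaction. P-values were adjusted by Benjamini and Hochberg over all genes tested. They measure the spread between pools. Fits were tested on simulated data. Alternatives were RLE factors, library totals, DESeq2 1.42.0, limma-voom (limma 3.58.1), no filter, a mean CPM of at least 1, an adjusted p below 0.01, a fit of all 16 libraries, and each library left out.

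Members, lists (other small subunit, large subunit and polymerase I genes, exosome, polymerase III, ribosomal proteins, Myc network, p53, and cell markers) and tests were chosen with earlier results of these data known. Named members were the 7 largest rises and 5 largest falls called in each sepsis comparison, those called in the interaction, and the 3 largest called differences in each direction between anesthetics. Other members are named within their role. From each pathway list came the 2 genes with the smallest adjusted p per sepsis comparison. Promoter letters came from RefSeq (GRCr8), and no coordinate of the files' build was used.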

Additional observations from a re-analysis of the deposited data

Results flagged for a closer look

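Among 15 named members, each group of 4 libraries was examined for a library far from the others by Dixon's criterion, in 60 groups, and likewise the mean of the 51 members in the 4 groups. Chance alone marks about 1 in 20 such groups. Ftsj3 stood at 60.2 CPM in Propofol sepsis library 10, against 79.8 to 80.3 CPM in the other 3. The mean log2 relative level of the members in Isoflurane control library 6 was -0.217, against -0.253 to -0.25 in the other 3, a small difference in a tight group. Npm1 is listed because it was called in the test of the difference between the anesthetics, at 0.52 in log2 fold change (adjusted p = 0.0354). That call was lost in 12 of 23 alternatives.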

How the results depend on the processing

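Over 23 values of named members, 375 alternatives were computed: 305 kept direction and side of the threshold, 70 kept direction but lost the call, and 0 reversed. The median of the members kept its direction in every comparison and alternative, and moved beyond 1 SD only with library totals, to -0.64 between controls and -0.38 between septic groups. With library totals 7 members were higher under isoflurane and 30 lower between septic groups. DESeq2 gave 3 higher and 1 lower in the interaction, and 18 lower and 2 higher between septic groups. Over all genes DESeq2 also called more, 847 against 289 in the interaction and 2885 against 1982 between septic groups. All 16 libraries in 1 fit gave 25 lower and 2 higher between septic groups. Without the filter on low counts the interaction had 0 higher. At an adjusted p below 0.01 there were 4 higher under isoflurane, 2 lower under propofol, 0 higher in the interaction and 0 lower between septic groups.

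With each library left out in turn, members higher under isoflurane ranged from 8 to 18, members higher under propofol from 2 to 7 and lower from 3 to 9. In the interaction they ranged from 0 to 5 higher and from 0 to 1 lower, between controls from 0 to 1 higher and from 40 to 46 lower, and between septic groups from 0 to 2 higher and from 0 to 15 lower. The causes were not tested. No paired analysis was possible because the groups share no replicate numbers. Depth limited the members little: only Nhp2 and Heatr1 had too few counts to test.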
